A study of Homo sapiens with 4 samples.

Results

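The transcripts of 10 cyclin and cell cycle kinase genes were followed in human leukemia cells given the cardiac glycoside periplocin. The genes were CCND1, CCND2 and CCND3 (the D cyclins), CCNE1 and CCNE2 (the E cyclins), CCNA2 and CCNB1 (the S phase and mitotic cyclins), and CDK1, CDK2 and CDK6. They were taken by name, through their Ensembl identifiers, and all 10 were found among the 20348 genes of the deposited count table. K562, a chronic myeloid leukemia line, and the acute monocytic leukemia line THP-1 were each kept for 72 h in DMSO, the solvent control that the sample titles call blank, or in 100 nM periplocin. Poly-A RNA from each of these 4 cultures gave 1 library, so there was a single biological replicate per condition, each line stands for itself alone, and no difference has a replicate check.

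Cyclins are the regulatory subunits of the cyclin-dependent kinases (CDKs), which drive a cell through division and are named for when they act. D cyclins with CDK4 or CDK6 respond to growth factor signals in G1 phase and begin the phosphorylation of the retinoblastoma protein. E cyclins with CDK2 complete it and start DNA replication, cyclin A2 serves CDK2 in S phase and CDK1 later, and cyclin B1 with CDK1 brings the cell into mitosis. E cyclin transcripts normally peak near the start of S phase, under E2F factors, while CCNA2, CCNB1 and CDK1 transcripts accumulate towards G2 and mitosis. In myeloid leukemia the D cyclins and CDK6 are often highly expressed, and CDK6 also restrains myeloid differentiation.

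Total counts ranged from 16381172 to 20622719 per library, and levels are given as CPM, the usual scaling of counts to the library total. Mitochondrially encoded genes took 5.62% of the K562 counts without and 2.07% with the drug, and for THP-1 these shares were 5.24% and 3.92%, whose part in the results was not tested. The 8 erythroid genes chosen to mark K562 lay between 87.2 and 770 CPM in K562 DMSO and at no more than 1.16 CPM in either THP-1 library. Summed, they stood at 2154 CPM in K562 DMSO and at 9008 after periplocin, and the part of this difference in the results was not tested. The 8 myeloid genes chosen to mark THP-1 summed to 1770 CPM without and 2415 CPM with the drug in that line, and to 312 and 258 CPM in the K562 libraries. In THP-1, CPM of 5 of the 8 were lower with the drug, and without PTPRC, at 439 and 1041 CPM, the sums were 1331 and 1375. Of these, MPO was at 0 counts and CSF1R at 3 counts in each K562 library. In bulk RNA, fewer cells in a phase of the cycle and less RNA of a gene per cell cannot be told apart.

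On GRCh38 in GENCODE release 29, CCND1 (ENSG00000110092) lies on chromosome 11 from 69641087 to 69654474 and CCND2 (ENSG00000118971) on chromosome 12 from 4273772 to 4305350, both on the plus strand. CCND3 (ENSG00000112576) lies on chromosome 6 from 41934933 to 42050357 on the minus strand. CCNE1 (ENSG00000105173) is on chromosome 19 from 29811898 to 29824308, on the plus strand, and CCNE2 (ENSG00000175305) on chromosome 8 from 94879770 to 94896678, on the minus strand. CCNA2 (ENSG00000145386) spans 121816444 to 121823933 on the minus strand of chromosome 4, and CCNB1 (ENSG00000134057) spans 69167010 to 69178245 on the plus strand of chromosome 5. CDK1 (ENSG00000170312, chromosome 10, 60778331 to 60794852) and CDK2 (ENSG00000123374, chromosome 12, 55966769 to 55972784) are on the plus strand and CDK6 (ENSG00000105810, chromosome 7, 92604921 to 92836594) is on the minus strand. Counts summed the whole annotated gene and not single transcripts, of which these genes have between 2 for CCNA2 and 23 for CCND3. The sources do not state that strand was kept, so reads from exons shared with a gene on the other strand cannot be told apart. CCNE2 shares 1629 of its 4397 exonic bases with INTS8, CCND1 shares 497 of 4830 with LTO1, CCNA2 shares 254 of 2798 with EXOSC9 and CDK2 shares 89 of 3894 with PMEL. On its own strand, CCND2 shares 989 exonic bases with AC008012.1, which had 6 and 7 counts in the K562 libraries and 11 and 1 in those of THP-1.

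In K562, 3 of the 10 genes changed at least 2-fold. CCND1 and CCNE2 fell and CCNB1 rose. In THP-1 only 1 of the 10 did, CCNE1, which fell. A gene was called changed where the adjusted p of edgeR's exact binomial test was under 0.05 and the log2 fold change was at least 1 in size. Because that test compares the counts of 2 libraries, its p-values and the standard errors and intervals given here cover counting error only and compare these libraries, not the conditions. By the same rule 18.3% of the 15919 genes tested in K562 and 18% of the 16020 tested in THP-1 were called, with 8.18% higher and 10.1% lower in K562 and 8.28% higher and 9.76% lower in THP-1. Among genes with a mean CPM of 10 or more, where all 10 lay in K562 and 8 in THP-1, 14.2% and 11.9% were called. The shares of the 10 genes rest on 3 and 1 calls. At any fold, 9 of the 10 differed beyond counting error in K562 and 8 in THP-1, where 59.4% and 61.5% of all genes did. Median log2 fold changes over the 10 genes were -0.27 in K562 and -0.10 in THP-1, against -0.01 over all genes tested in each line.

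**Figure D1:**
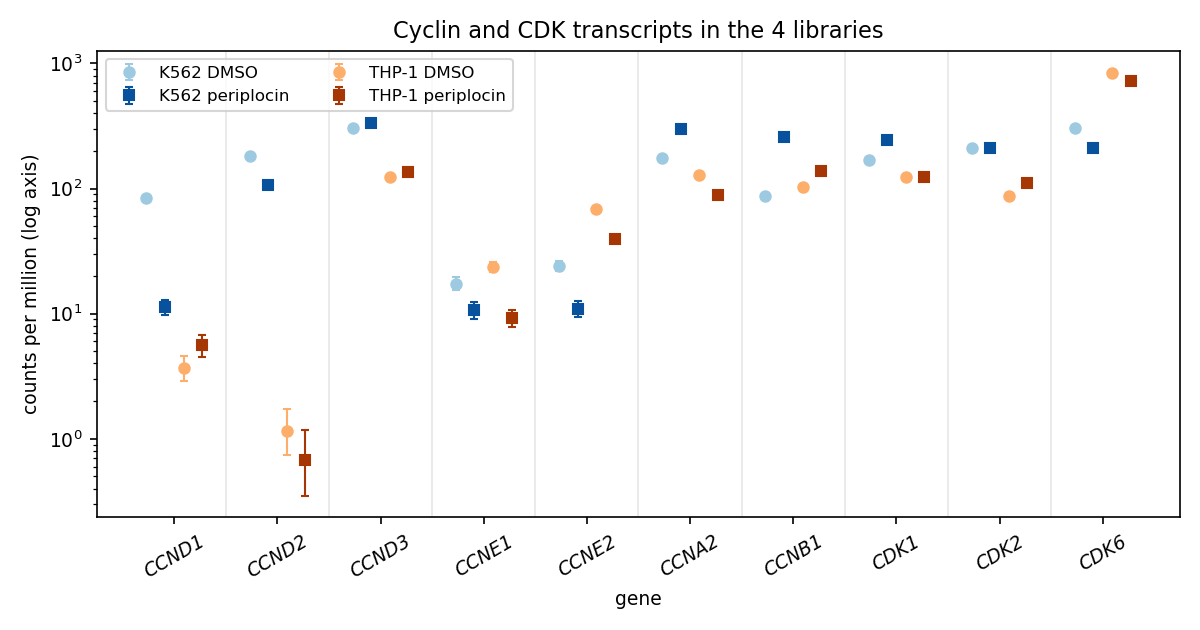
CPM (log axis) of the 10 cyclin and CDK genes in each of the 4 libraries, with exact 95% Poisson intervals that cover counting error only. CCND1 in K562 drops from 83.3 to 11.2 CPM with periplocin, CCND2 is near 1 CPM in both THP-1 libraries and CDK6 in THP-1 stands highest.

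CCND1, the cyclin that many growth factor pathways induce, had, in K562, the largest change seen among the 10 genes. K562 had 1365 counts of it in DMSO and 186 in periplocin, and THP-1 had 76 and 99. K562 DMSO stood apart at 83.3 CPM, and the other libraries lay between 3.69 and 11.2 CPM. In K562 it fell by 2.90 on the log2 scale (standard error 0.11, adjusted p = 7.61e-225, exact binomial test), a level 7.47-fold lower, and of the 9295 genes whose mean CPM reached 10 in that line 0.398% had a lower log2 fold change. In THP-1 the log2 fold change was 0.61 (adjusted p = 0.0112 by the exact binomial test, standard error 0.22), under the threshold, and rests on 76 and 99 counts. LTO1, whose exons overlap those of CCND1 on the other strand, had 267 counts without and 337 with the drug in K562, while THP-1 had 168 and 146.

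CCND2, which is prominent in blood cells, had 2971 counts in K562 DMSO and 1782 in K562 periplocin, while THP-1 had 24 without the drug and 12 with it. The THP-1 levels were at most 1.16 CPM, and those of K562 were 181 and 108 CPM. The log2 fold change was -0.76 in each line, with a standard error of 0.04 in K562 and 0.51 in THP-1, so that the THP-1 value lay inside counting error (exact binomial test, adjusted p = 0.193) and the K562 value was beyond it but short of 2-fold. CCND3, the D cyclin most widely used in blood cell lineages, had 4990 and 5509 counts in the K562 libraries and 2530 and 2423 in those of THP-1, again with DMSO first. Its log2 fold changes of 0.12 (standard error 0.03) and 0.17 (standard error 0.04) were beyond counting error and small.

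The make-up of the D cyclin transcripts therefore shifted in K562 and hardly in THP-1. To compare genes of different length, CPM were divided by the kilobases of annotated exonic sequence. Summed in this unit, the D cyclins of K562 stood at 95.1 CPM per kb without and 74.7 with the drug, and those of THP-1 at 22.1 and 24.8. CCND3 made up 55.2% of the sum in K562 DMSO (95% interval from counts 54.2 to 56.2) and 76.8% in K562 periplocin (75.8 to 77.7), while CCND1 went from 18.1% to 3.11% and CCND2 from 26.6% to 20.1%. In THP-1 nearly all of the D cyclin sum was CCND3, at 95.8% in DMSO (94.9 to 96.6), with overlapping intervals for the drug (94.0 to 95.8). The length of the longest coding transcript, meaning the one with the longest coding sequence, was used as an alternative. With it CCND3 was at 75.5% and 89.3% in K562. The size of its share thus depends on which transcripts are present, whereas the shift keeps its direction.

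**Figure D2:**
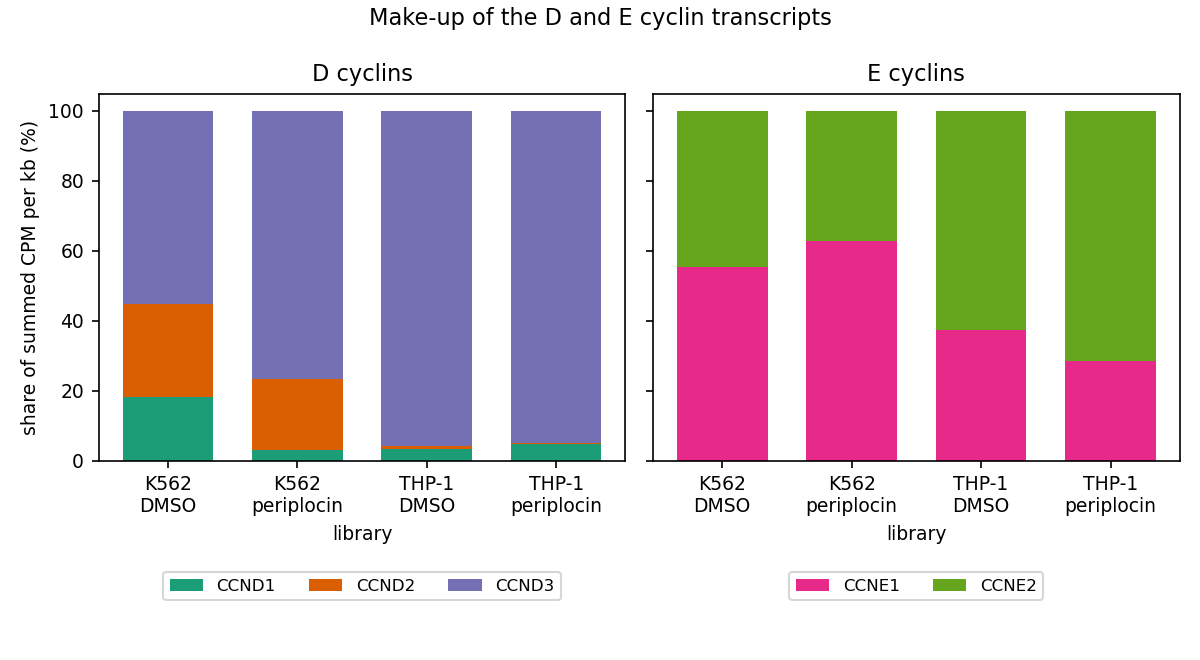
Share (%) of each D cyclin (left) and each E cyclin (right) in the summed CPM per kb of its family, one bar per library. CCND3 takes 55.2% of the D cyclin bar in K562 DMSO and 76.8% in K562 periplocin, and 95.8% in THP-1 DMSO.

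Both E cyclins had lower counts with periplocin in both lines, the only family among the 10 genes in which every member did so beyond counting error. CCNE1, the first of the cyclin E genes to be described, had 285 counts in K562 DMSO and 176 in K562 periplocin, and 488 and 163 in THP-1. In THP-1 it fell by 1.35 on the log2 scale (standard error 0.13, adjusted p = 2.01e-27, exact binomial test), and in K562 the log2 fold change was -0.72 (standard error 0.14, adjusted p = 3.50e-07). CCNE2, its close paralog, had 394 and 180 counts in the K562 libraries and 1404 and 703 in those of THP-1. It fell by 1.16 in K562 (standard error 0.13, adjusted p = 1.57e-19, exact binomial test) and stood at -0.77 in THP-1 (standard error 0.07, adjusted p = 3.76e-31), short of 2-fold. Summed per kb, the E cyclins of K562 were at 12.3 CPM per kb in DMSO and 6.64 in periplocin, and those of THP-1 at 24.8 and 12.6.

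The gene that overlaps CCNE2 on the other strand went the other way. INTS8, a subunit of the Integrator complex, had 2062 counts in K562 DMSO and 2613 in K562 periplocin, and 2372 and 3103 in THP-1. INTS8 had more counts with periplocin in both lines, while CCNE2 had fewer. The part of shared reads in either gene, and so in the shares below, was not tested. The share of CCNE2 in the E cyclin sum of THP-1 was 62.5% without and 71.4% with the drug, against 44.5% and 37.2% in K562.

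CCNB1, CCNA2 and CDK1 had higher counts with periplocin in K562, and of these CCNB1 alone passed 2-fold. CCNB1, the mitotic cyclin, had 1429 counts in K562 DMSO and 4298 in K562 periplocin, and 2131 and 2447 in THP-1. It rose by 1.56 on the log2 scale in K562 (standard error 0.04), a level 2.95-fold higher that exceeded the log2 fold change of 98.1% of the genes whose mean CPM reached 10. In THP-1 it was 0.43 (standard error 0.04, adjusted p = 4.41e-23, exact binomial test), in the same direction but under the threshold.

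CCNA2, the cyclin shared by CDK2 and CDK1, had 2851 counts in K562 DMSO and 4973 in K562 periplocin, and 2641 and 1562 in THP-1. It was thus higher with periplocin in K562 and lower in THP-1. Its log2 fold changes were 0.78 (standard error 0.03) in K562 and -0.53 (standard error 0.05) in THP-1, each beyond counting error and short of 2-fold. EXOSC9, an exosome subunit gene that shares 254 exonic bases with it, had 1406 and 1622 counts in the K562 libraries, while THP-1 had 1250 and 895, the same directions, and the part of shared reads in either gene was not tested.

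CDK1, the kinase of mitotic entry, had 2746 counts in K562 DMSO and 4019 in K562 periplocin, and 2545 and 2193 in THP-1. Its log2 fold change of 0.52 in K562 (standard error 0.04) was beyond counting error, and that of 0.02 in THP-1 (standard error 0.04, adjusted p = 0.794, exact binomial test) was within it. Summed per kb, CCNA2, CCNB1 and CDK1 of K562 were at 139 CPM per kb in DMSO and 271 in periplocin, and those of THP-1 at 118 and 117.

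**Figure D3:**
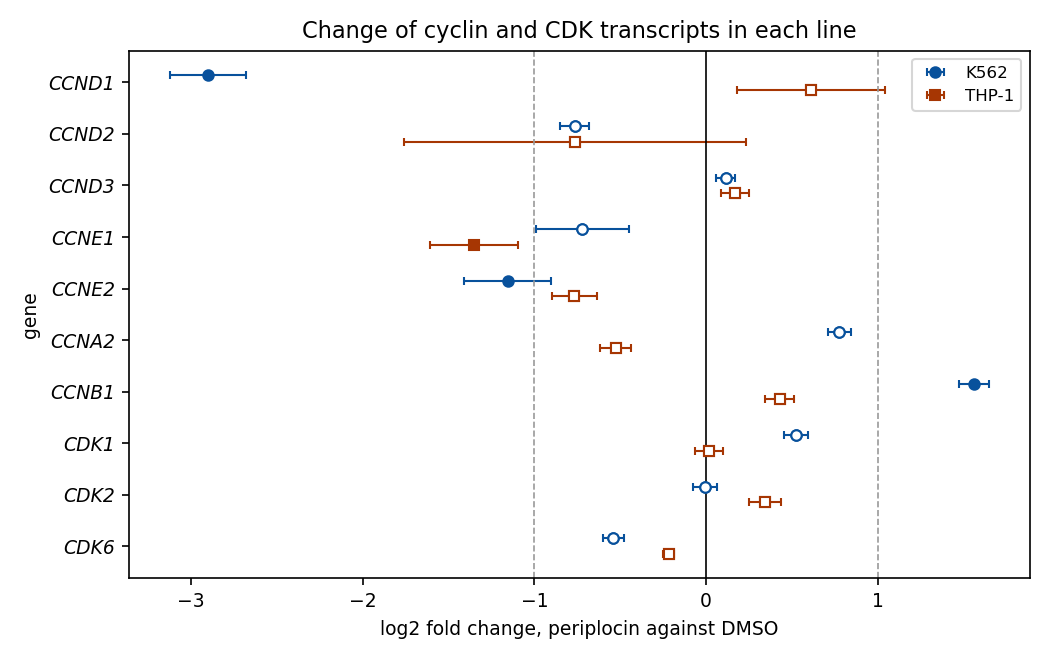
Log2 fold change of each gene, periplocin against DMSO, in K562 (circles) and THP-1 (squares), with 95% intervals from counting error alone. Filled symbols mark genes called at 2-fold (dashed lines), which are CCND1, CCNE2 and CCNB1 in K562 and CCNE1 in THP-1.

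CCNA2, CCNB1 and CDK1 all had higher counts beyond counting error in K562, and genes of this phase are known to carry CCAAT boxes and a cell cycle genes homology region (CHR) close to their start. Stretches of 20 bases around such letters are shown for that reason, from RefSeq promoter windows on GRCh38.p14, 5′ to 3′ on the strand of the gene, with the motif letters in capitals (ATTGG is CCAAT read on the other strand). The CCNA2 stretches lie on the minus strand at chr4:121823927-121823946 and chr4:121823899-121823918, those of CCNB1 on the plus strand at chr5:69167056-69167075 and chr5:69167113-69167132, and those of CDK1 on the plus strand at chr10:60778425-60778444 and chr10:60778458-60778477, before the second of its annotated starts. The starts used here are those of RefSeq. In CCNA2, CCNB1 and CDK1 they are at 121823883, 69167150 and 60778478, inside the GENCODE gene spans given above. Of the stretches shown, only the CCAAT box stretch of CCNA2 reaches outside those spans. Not every match before the RefSeq starts is shown. Left out are a CHR match at -87 bases from the start in CCNA2 and a CCAAT box at -55 in CCNB1. In CDK1 a CCAAT box at -78 and a CHR match at -69 are left out. The CHR spellings labelled for CCNA2 and CCNB1 were allowed only after these sequences were seen.
CCNA2 CCAAT box: cgctttcATTGGtccatttc
CCNA2 CHR: cgggataCTTGAActgcaag
CCNB1 CCAAT box: gcagccgCCAATgggaaggg
CCNB1 CHR: tgcggggTTTAAAtctgagg
CDK1 CCAAT box: ctacccgATTGGtgaatccg
CDK1 CHR: cggtgagTTTGAAactgctc

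Promoter windows of 300 bases, from 250 before to 50 after a start, were found for 6 of the 10 genes (CCNA2, CCNB1, CCND3, CCNE1, CDK1 and CDK6), 10 windows in all, and were searched on both strands. CCAAT was present in 6 of the 10 windows (of CCNA2, CCNB1, CCND3 and CDK1), and in 34.6% of all 35116 windows. With the CHR spelled TTTGAA or TTCGAA, 2 of the 10 windows matched, both of CDK1, where 16.4% of all windows did. With TTTAAA and CTTGAA also allowed, a choice made after these sequences were seen, 5 of the 10 matched (of CCNA2, CCNB1, CCNE1 and CDK1), against 32.2% of all windows. An E2F site, spelled TTTCCCGC, TTTCGCGC, TTTGCCGC or TTTGGCGC, was found in 2 of the 10, both of CDK1, and in 3.31% of all windows. These windows of CDK1 overlap, and the E2F letters found in both are the same site. TATAAA was found in none of the 10 and in 11.5% of all. A match of letters describes these windows and shows no binding.

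**Figure D4:**
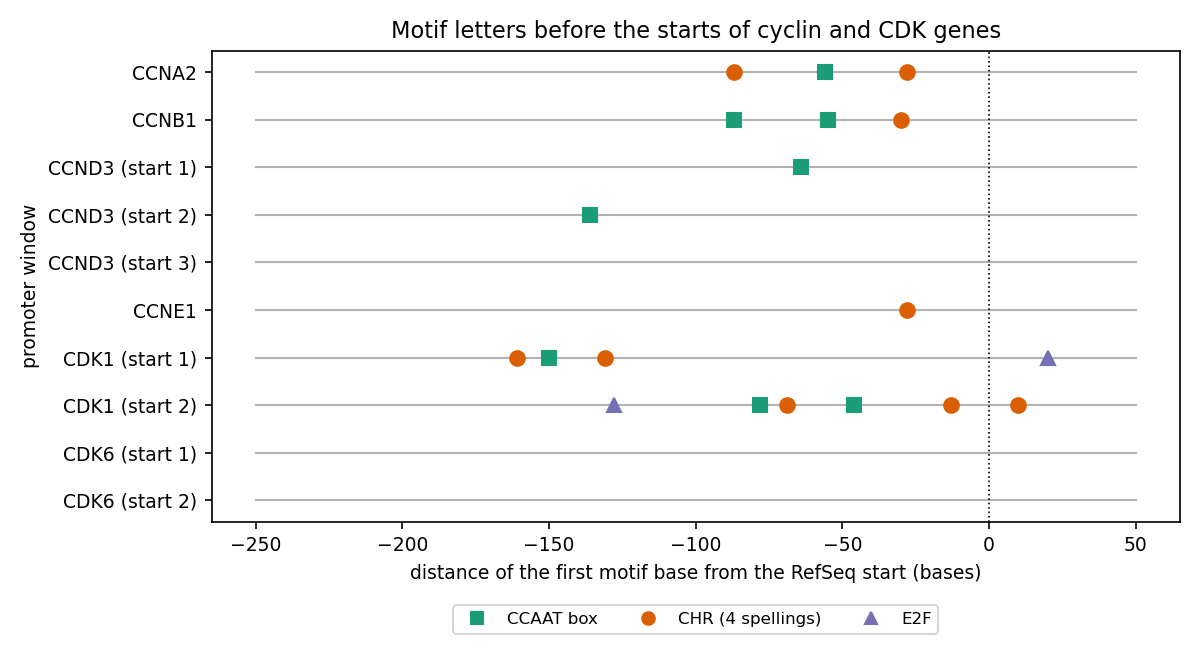
Position of CCAAT, CHR (4 spellings) and E2F letters in the 10 promoter windows, as the distance in bases of the first motif base from the RefSeq start (dotted line). In CCNA2, CCNB1 and the second CDK1 start a CHR match follows a CCAAT box on its start-site side, within 30 bases of the start. For CCNA2 and CCNB1 this holds only with the spellings added after these sequences were seen. CCNE1 also has such a match, at -28, without a CCAAT box.

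Neither CDK2 nor CDK6 was called in either line. CDK2, partner of the E cyclins and cyclin A2, had 3429 and 3477 counts in the K562 libraries and 1800 and 1950 in those of THP-1, DMSO first. The log2 fold change in K562 was -0.01 (standard error 0.03, adjusted p = 0.939, exact binomial test) and had a 95% interval from -0.07 to 0.06, and in THP-1 it was 0.35 (standard error 0.05). CDK6, a partner of the D cyclins, had 5002 and 3502 counts in the K562 libraries and 17364 and 12733 in those of THP-1. Its log2 fold changes of -0.54 (standard error 0.03) in K562 and -0.22 (standard error 0.02) in THP-1 were beyond counting error and short of 2-fold. CDK4, the other D cyclin partner, had 3269 and 3339 counts in the K562 libraries and 2723 and 1330 in those of THP-1, with log2 fold changes of 0.00 and -0.80.

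The difference between the lines was itself compared, as the log2 fold change in THP-1 minus that in K562, and was called where it was at least 1 in size with an adjusted p under 0.05 from counting error. It was called for 3 of the 10 genes, CCND1, CCNA2 and CCNB1, and for 20.6% of 12491 genes. For CCND1 the difference was 3.51 (standard error 0.25), for CCNA2 it was -1.30 (0.06) and for CCNB1 it was -1.13 (0.06). CDK1 differed by -0.51, CCNE1 by -0.63, CCNE2 by 0.39, CDK2 by 0.35 and CDK6 by 0.32, all with 95% intervals that leave out 0. For CCND3 the difference was 0.05 (95% interval -0.05 to 0.15). For CCND2 the changes in the lines were alike at -0.76, but the standard error of their difference was 0.51, so that one of nearly 2-fold either way lies within its 95% interval.

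A fit over all 4 libraries, with terms for line and for treatment, takes the disagreement between lines as its error, on 1 residual degree of freedom. By edgeR's quasi-likelihood test 0 of the 10 genes passed an adjusted p of 0.05, as did 0 of 13584 genes (0%), and 4 of the 10 had an unadjusted p under 0.05, where 11.3% of all genes did. These were CCNB1, CCND2, CCNE1 and CCNE2, with treatment log2 fold changes of 1.00, -0.76, -1.03 and -0.95. DESeq2 with the same terms also called 0 of the 10, and 1.07% of the genes to which it gave an adjusted p. Of those 4 genes, CCNB1 and CCNE2 had an unadjusted p under 0.05 by DESeq2 too, and CCND2 and CCNE1 did not. CCND2 rests on 24 and 12 counts in THP-1.

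Without the drug the lines already differed in these genes. Between THP-1 DMSO and K562 DMSO 6 of the 10 genes were called, where 41.1% of 16431 genes were (21.7% higher and 19.5% lower), as were 36.1% of those with a mean CPM of 10 or more. At any fold all 10 differed beyond counting error, and 74.8% of all genes did. CCND2 was lower in THP-1 by a log2 fold change of -7.16 (standard error 0.29) and CCND1 by -4.38 (standard error 0.17), and CCND3 and CDK2 were also lower, at -1.19 and -1.14. CDK6 and CCNE2 were higher in THP-1, by 1.58 (standard error 0.02) and 1.62 (standard error 0.08). CCNE1, CCNA2, CCNB1 and CDK1 differed by less than 2-fold, with log2 fold changes of 0.56, -0.32, 0.36 and -0.32. Scaling by total counts in place of TMM shifts every log2 fold change of this comparison by -0.12 in the median.

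In the order of levels per kb of annotated exonic sequence, CCNA2 came first in K562 DMSO at 62.2 CPM per kb and CCNE2 last at 5.47. CDK2 and CCND3, at 53.8 and 52.5, had overlapping intervals, as did CCND2 and CDK6, at 25.3 and 24.9, and other neighbours did not. In K562 periplocin CCNA2 and CCNB1 stood first at 107 and 101, with overlapping intervals, and CCNE2 and CCND1 last at 2.47 and 2.33, also overlapping. In THP-1 CDK6 came first in DMSO and in periplocin, at 68.7 and 58.6, and CCND2 last at 0.163 and 0.0946. There CDK2 and CCND3 overlapped in DMSO, at 22.4 and 21.1, and CCNA2 and CDK1 in periplocin, both at 31.5. The order turns on the length used. Per kb of the longest coding transcript CCND3 came first in both K562 libraries, at 146 and 159.5 CPM per kb. CDK2 followed in K562 DMSO at 121 and CDK1 in K562 periplocin at 125, and CCNA2 stood at 62.2 and 107. For THP-1 periplocin CCND3, CDK2, CCNB1 and CDK1 were close on this length, at 65.6, 63.8, 63.7 and 63.5, and CDK6 was at 61.9. Intervals were not computed on this length, so no first place is given for THP-1 periplocin. The other places on this length rest on the values alone. CDK6 came first in THP-1 DMSO and CCND2 last in both THP-1 libraries with either length.

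Lists of other cell cycle genes were counted in the same way. Of 53 genes of a commonly used G2/M list, 17 (32.1%) were called higher in K562 and 0 lower, where 8.18% of all genes were called higher, and the median log2 fold change was 0.75 over the 51 whose mean CPM reached 10, against 0.02 over all such genes. AURKA, a spindle kinase, rose by 1.87 (standard error 0.05), BUB1, a spindle checkpoint kinase, by 1.71 (0.04) and CDC20, which targets cyclin B1 for destruction during mitosis, by 1.65 (0.04). In THP-1 0 of the 53 were called, where 18% of all genes were, and the median was 0.03. AURKA, BUB1 and CDC20 stood there at 0.62, -0.01 and 0.32. The lists leave out the 10 cyclin and CDK genes, and some genes, such as CDC20, CKS2 and CCNB2, are in more than 1 list.

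Of 42 S phase genes, 3 (7.14%) were called lower and 0 higher in K562, where 10.1% of all genes were called lower. The median in K562 was -0.10. In THP-1 6 were called lower and 0 higher, where 9.76% of all genes were called lower, and the median was -0.62 against 0.01 over all genes at that level, with 41 of the 42 below 0. RRM2, a ribonucleotide reductase subunit, fell in both lines, with log2 fold changes of -1.55 (standard error 0.04) for K562 and -1.92 (0.06) for THP-1, as did PRIM1, a primase subunit, at -1.54 (0.07) and -1.54 (0.08). CDCA7 and UNG, which removes uracil from DNA, fell in THP-1, at -1.74 (0.07) and -1.75 (0.09), and stood at 0.10 and 0.69 in K562.

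**Figure D5:**
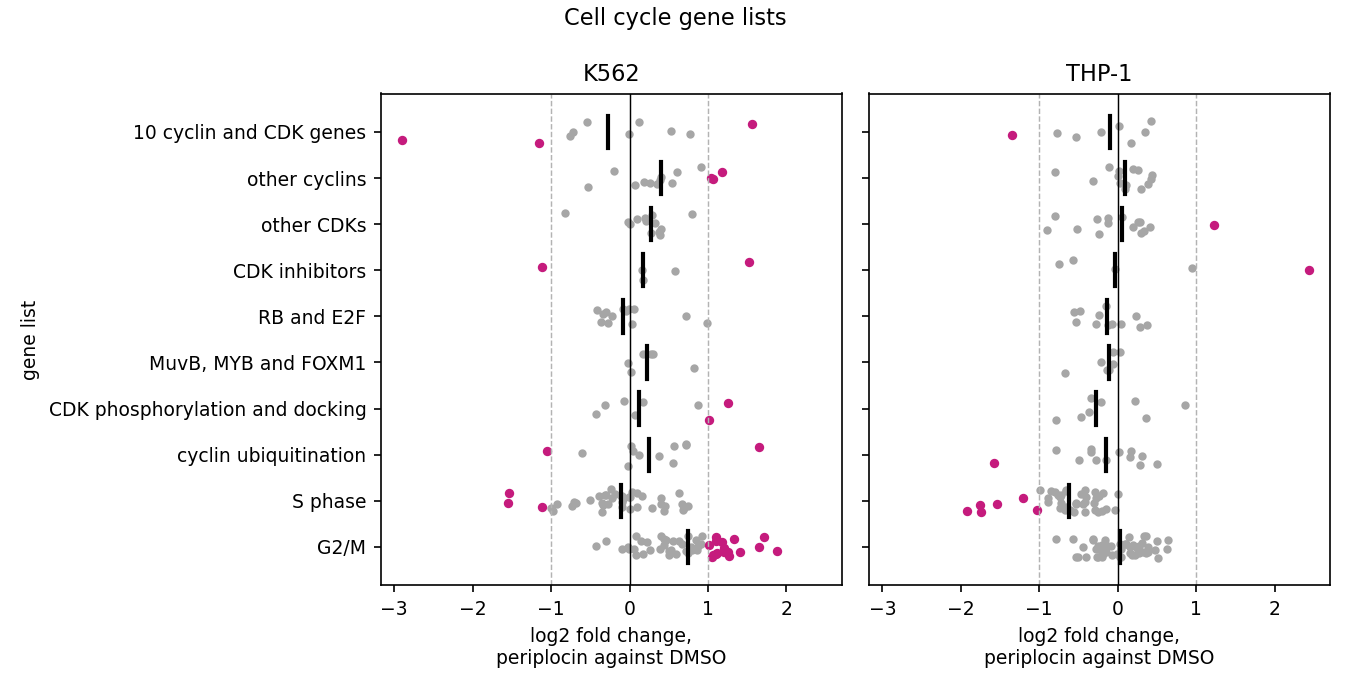
Log2 fold change, periplocin against DMSO, of the genes of each list whose mean CPM reached 10, in K562 (left) and THP-1 (right). Pink points are called at 2-fold (dashed lines), grey points are not and black bars are medians, which for G2/M are 0.75 in K562 and 0.03 in THP-1 and for S phase -0.10 and -0.62.

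Of the inhibitors that bind these kinases, CDKN1A, the gene of p21, was called in opposite directions. In K562 it fell, with 825 counts in DMSO and 386 in periplocin (-1.12 on the log2 scale, standard error 0.09), and it rose from 500 to 2308 in THP-1 (2.44, standard error 0.07). CDKN1C, the gene of p57, rose in both, from 165 to 483 counts (1.52, standard error 0.13) and from 13 to 37 (1.73, standard error 0.46). CDKN1B, CDKN2C, CDKN2D and CDKN3 were not called in either line, their K562 log2 fold changes being 0.58, 0.17, -0.09 and 0.16, and those of THP-1 -0.03, -0.75, 0.95 and -0.57. CDKN2A and CDKN2B had 0 counts in all 4 libraries. Of the 6 inhibitor genes tested, 1 was called higher and 1 lower in K562, and 2 higher and 0 lower in THP-1. These were 33.3% in each line, resting on 2 calls each, where 18.3% and 18% of all genes were called.

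Of 17 other cyclins, 3 (17.6%) were called higher and 0 lower in K562, and 0 higher and 2 (11.8%) lower in THP-1. Over all genes 18.3% were called in K562 and 18% in THP-1. The 2 cyclins called in THP-1 were CCNA1, the germ line cyclin A, at -1.86 (standard error 0.22), and CCNO, at -1.62 (0.45). They were named after their values were seen since both lie under a mean of 10 CPM. CCNB2, the second mitotic cyclin B, rose in K562 by 1.18 (standard error 0.06), CCNG1, a p53-responsive cyclin, by 1.07 (0.03) and CCNL1, a cyclin linked to splicing, by 1.03 (0.05). In THP-1 they stood at -0.32, 0.38 and 0.30. Of 17 other CDKs, 0 were called in K562 and 1 (5.88%) in THP-1. This was CDK14, which rose from 200 to 401 counts (1.23, standard error 0.12) and had 18 and 15 counts in K562.

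None of 13 retinoblastoma and E2F family genes and none of 8 MuvB, MYB and FOXM1 genes was called in either line by the exact binomial test at 2-fold. Of 8 genes that phosphorylate, dephosphorylate or dock on CDKs, CKS2, a CDK docking subunit, and MNAT1, of the CDK-activating kinase, rose in K562 by 1.25 (standard error 0.06) and 1.02 (0.10) and stood at 0.22 and -0.21 in THP-1, where 0 were called. These were 25% of that list in K562, against 18.3% of all genes. Of 13 genes of cyclin ubiquitination, CDC20 rose and FBXO4, an F-box protein gene, fell by 1.05 (0.15) in K562. FBXO4 alone was called in THP-1, where it fell by 1.58 (0.12). Called genes made up 15.4% of this list in K562 and 7.69% in THP-1, where 18.3% and 18% of all genes were called.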

How the data were processed

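Per the labels and the study's methods, poly-A RNA of K562 and THP-1 cells was sequenced as paired-end reads, 1 library per condition, and the notes of the submitters name HISAT2, StringTie 1.3.1 and hg38 without giving each a role. The authors deposited expected counts by gene, which were not normalized and with no pooling of libraries, and between 87.4% and 88.3% of the values are whole numbers. How the expected counts were made from the alignments is not given in the sources used here. They were rounded to whole numbers. Identifiers were matched to symbols for 20310 of 20348 genes, and 20118 were found in GENCODE release 29. There were 0 unused columns.

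For each pair of libraries TMM factors came from edgeR 4.0.16 (R 4.3.3), and its exact binomial test (dispersion of 0, two-sided) was run over all genes with at least 1 count, with Benjamini-Hochberg adjustment at 0.05 and a log2 fold change of at least 1 at a prior count of 0.125. The fit over 4 libraries used edgeR's quasi-likelihood test on the 13584 genes that reached 10 counts in 2 or more libraries, and DESeq2 1.42.0 was the alternative. The difference between lines was tested on its standard error from counts, two-sided, by a normal approximation. Intervals are exact Poisson for levels and normal approximations for log2 fold changes. Those for shares are Clopper-Pearson on the counts, put on the per kb scale with the mix of the other family members held fixed. All are at 95% and cover counting error only. The test of each pair, the difference between lines and the quasi-likelihood fit were tried on simulated Poisson counts. The other steps were not. Promoter windows came from RefSeq on GRCh38.p14, and tables and figures from Python 3.11.15 with pandas 2.3.3 and matplotlib 3.10.9.

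The 10 genes and the lists were chosen with earlier results of these data known. Lists were written from general knowledge, with those for S phase and G2/M taken from single-cell practice, without the 10 genes. Genes named from a list are the 3 with the largest called change in each line among those with a mean of at least 10 CPM, every CDK inhibitor with at least 10 counts, and CDK4, except that 1 gene this rule names is not reported here. LTO1, AC008012.1, EXOSC9, INTS8 and PMEL are named for their overlap. Alternatives were other scalings, filters and prior counts, assumed dispersions and a 4-fold threshold.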

Additional observations from a re-analysis of the deposited data

Results flagged for a closer look

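Genes are given here where the change in THP-1 minus the change in K562 was called from counting error, with 1 library per condition and so no replicate check. Of the 10 cyclin and CDK genes these were CCND1, at 3.51 on the log2 scale, CCNA2, at -1.30, and CCNB1, at -1.13. CCND1 in THP-1 rests on 76 and 99 counts.

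Of the other named genes, the difference was 3.56 for CDKN1A, which was called in opposite directions in the lines, 1.03 for CDKN2D and 1.52 for CDK14. It was -1.50 for CCNB2, -1.25 for AURKA, -1.72 for BUB1 and -1.33 for CDC20, all of the G2/M list, and -1.03 for CKS2 and -1.23 for MNAT1. Of the S phase genes it was -1.84 for CDCA7 and -2.44 for UNG.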

How the results depend on the processing

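Each line has 1 library per condition, so no paired test could be run within a line alone. The fit over 4 libraries, with line as a term, pairs DMSO with periplocin within each line and called 0 of the 10 genes. No library could be left out. The 30 log2 fold changes (10 genes in 3 comparisons) were recomputed in 239 instances under the alternatives. In 221 the direction and the call, or lack of one, stayed the same, 16 lost their call and 2 turned. Of the 16, 9 were at an assumed dispersion, where the log2 fold change itself does not change. The other 7 were with the threshold raised to a log2 fold change of at least 2. Values not called at first had no call to lose. Both that turned were CDK2 in K562, at 0.020 with DESeq2's size factors and 0.00434 with total counts. At an assumed dispersion of 0.16 between replicates, the number of the 10 genes called was 0 in K562, 0 in THP-1 and 2 between the DMSO libraries, and with a log2 fold change of at least 2 it was 1, 0 and 2. Called genes over the whole table numbered 100 against 2908 in K562, 88 against 2890 in THP-1 and 3359 against 6761 between the DMSO libraries at that dispersion, and 960, 969 and 4258 at a log2 fold change of at least 2; at 0.04 they were 1728 in K562 and 1622 in THP-1. At a dispersion of 0.04 CCNE2 in K562 was no longer called (adjusted p = 0.0655, edgeR's exact test) and 1 gene in place of 3, CCND1, differed between the lines. With the length of the longest coding transcript, the share of CCND3 among D cyclins was 75.5%, 89.3%, 98.3% and 97.9% in K562 DMSO, K562 periplocin, THP-1 DMSO and THP-1 periplocin. In THP-1, CCND2 had too few counts for the filter at 1 CPM, and its 24 and 12 counts limit what can be said of it there.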
